A study of Mus musculus with 31 samples.

Results

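The 10 genes described here belong to the interleukin-1 (IL-1) family and to the inflammasome, the protein complex that matures its cytokines. They were chosen by symbol, with earlier results of these data known. All 10 were found among the 24411 entries of the deposited gene count table and passed the filter on low counts. RNA-seq was made from Ly6C-high monocytes of C57BL/6J mice, sorted as positive for CD11b and negative for Ly6G and MHC-II. There were 3 groups of 3 libraries. Healthy blood stands for circulating monocytes of mice without a tumor, LLC blood for those of mice with a subcutaneous Lewis lung carcinoma (LLC), and LLC tumor for monocytes sorted from the tumors. LLC is a transplantable mouse lung cancer cell line, so a single tumor model stands behind both LLC groups. The labels do not say whether the libraries came from separate or pooled animals, and the p-values measure the spread between these libraries only. Ages are not given in the labels used here.

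IL-1 alpha (Il1a) and IL-1 beta (Il1b) are inflammatory cytokines that signal through the receptor Il1r1 together with the accessory chain Il1rap. Their action is checked by the receptor antagonist Il1rn, which occupies the receptor without signaling, and by the decoy receptor Il1r2, which binds the cytokines without signaling. IL-18 (Il18) is a related cytokine that Il18bp neutralizes. IL-1 beta and IL-18 are made as inactive precursors, and the inflammasome, built from the sensor Nlrp3, the adaptor Pycard (ASC) and the protease Casp1, cleaves them. In monocytes the transcript of Il1b is inducible, and cleavage and release are separate steps that RNA counts do not measure.

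The clearest pattern lay between tumor and blood. Il1b, Il1rn and Il1r2 were 14.4-fold to 83.3-fold higher in tumor monocytes than in blood monocytes of either kind, Il1a went from the limit of detection to 26.3 CPM (counts scaled to a common library total) or more, Nlrp3, Il1rap and Il18 were higher by less, and Casp1 was lower. Between the blood of tumor-bearing and of healthy mice the differences were small: Il1r2 and Il1rap were higher and Casp1 was lower in LLC blood.

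The upstream sequences of the genes that rose most are shown because these 4 genes moved together in the tumor. The windows cover 250 bases before a transcript start, 5' to 3' on the gene's strand, from RefSeq on GRCm38.p6, the assembly also known as mm10. RefSeq lists several starts for Il1rn, of which the most upstream and the most downstream are printed, and the counts do not tell which start was used. Capitals mark matches, on either strand, to the C/EBP motif TTNNGNAA, the AP-1 motif TGANTCA, the hypoxia factor core ACGTG, the PU.1 core GAGGAA and the NF-kB consensus.
Il1b, minus strand, chr2:129371140-129371389: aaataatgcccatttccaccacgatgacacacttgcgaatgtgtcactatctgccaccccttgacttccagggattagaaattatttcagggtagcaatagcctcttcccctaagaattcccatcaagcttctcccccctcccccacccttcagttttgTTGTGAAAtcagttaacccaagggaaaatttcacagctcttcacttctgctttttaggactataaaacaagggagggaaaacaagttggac
Il1a, minus strand, chr2:129309973-129310222: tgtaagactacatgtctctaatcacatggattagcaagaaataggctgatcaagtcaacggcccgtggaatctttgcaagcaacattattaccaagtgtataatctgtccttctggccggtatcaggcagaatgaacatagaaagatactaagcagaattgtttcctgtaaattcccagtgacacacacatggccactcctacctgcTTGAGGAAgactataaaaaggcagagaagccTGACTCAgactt
Il1rn, plus strand, upstream start, chr2:24336610-24336859: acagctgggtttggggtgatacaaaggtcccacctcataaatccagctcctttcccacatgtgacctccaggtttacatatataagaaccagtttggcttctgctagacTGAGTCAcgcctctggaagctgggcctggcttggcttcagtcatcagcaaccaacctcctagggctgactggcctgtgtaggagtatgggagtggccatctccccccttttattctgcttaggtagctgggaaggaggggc
Il1rn, plus strand, downstream start, chr2:24345121-24345370: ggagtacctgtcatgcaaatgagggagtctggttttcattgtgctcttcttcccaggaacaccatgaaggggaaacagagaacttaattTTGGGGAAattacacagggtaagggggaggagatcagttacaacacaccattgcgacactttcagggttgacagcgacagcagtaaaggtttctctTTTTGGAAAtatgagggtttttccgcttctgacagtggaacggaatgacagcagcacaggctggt
Il1r2, plus strand, chr1:40085843-40086092: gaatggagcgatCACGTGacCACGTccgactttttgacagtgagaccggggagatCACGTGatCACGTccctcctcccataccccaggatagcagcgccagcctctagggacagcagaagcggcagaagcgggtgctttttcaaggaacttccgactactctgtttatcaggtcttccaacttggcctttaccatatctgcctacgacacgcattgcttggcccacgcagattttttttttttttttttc

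The Il1b window held a single C/EBP match, TTGTGAAA, from 91 to 84 bases before the start. The Il1a window held a C/EBP match that overlaps a PU.1 core, and an AP-1 match. The upstream Il1rn window held an AP-1 match, and the downstream window held 3 C/EBP matches, of which 2 overlap each other. The Il1r2 window held 6 matches to ACGTG on both strands, of which 4 form 2 copies of the palindrome CACGTG. Of 32851 RefSeq windows of this length, 36.8% held a C/EBP match, 6.75% an AP-1 match, 16.6% an ACGTG match, 23.3% a PU.1 core and 7.25% an NF-kB match. Among the 13 windows of the 10 genes, 8, 2, 4, 4 and 1 held these motifs in that order, and the NF-kB match was in an Nlrp3 window. Il1rn and Nlrp3 gave several windows each. The downstream Il1rn window overlaps another Il1rn window that is not printed, and the C/EBP match TTGGGGAA counts in both. A match describes the letters only.

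Levels are given as CPM and can be compared between libraries for a gene but not between genes, whose lengths differ. Total counts ranged from 10457492 to 20706412 per library. The fit covered 12337 genes, and calls were made where the adjusted p was below 0.05. Of these genes, 23.6% were called between LLC blood and healthy blood, 61.3% between LLC tumor and LLC blood, and 66.5% between LLC tumor and healthy blood. The share of called genes that were higher was 59.4% in the blood comparison, where upper-quartile factors gave 46.3%, and 48.3% in LLC tumor against LLC blood, where library totals only gave 36.3%. All 8 monocyte markers were detected in each group, and their summed CPM ran from 32524 to 36424 for healthy blood, from 23280 to 26597 for LLC blood and from 14742 to 19213 for LLC tumor. Lyz2 held most of the blood sums and the largest part in tumor, with means of 27021, 17289 and 7912 CPM. In tumor against LLC blood 3 of the 8 were called higher, among them Cd14 (38.3-fold) and Itgam (2.75-fold), and 4 lower, among them Ly6c2 (log2 fold change -1.45), the gene of a sorting marker. Of all genes 29.6% were called higher and 31.7% lower there. The 7 fibroblast markers were all detected in each group and summed to 938.2 to 3929 CPM in LLC tumor. The healthy libraries held 6.02 to 16.9 CPM of them, and LLC blood 1 to 3 held 414.2, 3.67 and 4.59 CPM. The first LLC blood library therefore stands apart, and each result is also given without it where that changes a call. LLC blood 1 also had the highest sum of 13 dissociation stress genes in its group, 4068 CPM against 1526 and 1368 CPM. LLC tumor 1 stands apart within its group by the lowest fibroblast sum, 938.2 CPM against 3470 and 3929 CPM. Its TMM factor, the scaling used in the fit, was 0.798, against 0.968 to 1.07 for the other libraries. CPM levels do not use these factors. In bulk libraries fewer cells of a type and less RNA per cell cannot be told apart.

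Il1b (ENSMUSG00000027398, chr2:129364569-129371164), the main secreted IL-1 of monocytes, was at 59.5, 72.4 and 58.1 CPM in healthy blood 1 to 3, at 63.0, 63.2 and 85.3 CPM in LLC blood and at 2161, 1186 and 1467 CPM in LLC tumor. The blood groups overlapped, and every tumor library lay more than 10-fold above every blood library. In tumor it was 26.9-fold higher than in LLC blood (log2 fold change 4.75 ± 0.32 SE, n = 3 per group, adjusted p 2.35e-06) and 29.5-fold higher than in healthy blood (4.88 ± 0.32 SE, adjusted p 1.72e-06). Between LLC blood and healthy blood the log2 fold change was 0.13, with a 95% interval of -0.50 to 0.76 (adjusted p 0.775). Its sign turned without LLC blood 3 (-0.033).

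Il1a (ENSMUSG00000027399, chr2:129299609-129310186), the alarmin form of IL-1 that is active without cleavage by caspase-1, was near the limit of detection in blood. It had 4.60, 4.17 and 6.21 counts in healthy blood and 2.65, 0 and 3.54 counts in LLC blood, against 1046, 336.4 and 304.1 counts in LLC tumor. As CPM this was 94.4, 29.8 and 26.3 CPM in tumor, and 0 to 0.381 CPM in all blood libraries. A count of 0 at the depth of LLC blood 2 allows up to 0.208 CPM, counting error only. The summed counts gave a tumor level 378-fold that of LLC blood, with a 95% counting interval of 173-fold to 1031-fold, and 154-fold that of healthy blood (93.3-fold to 276-fold). The edgeR fit gave a log2 fold change of 8.55 ± 0.89 SE against LLC blood (adjusted p 3.25e-05) and of 7.50 ± 0.80 SE against healthy blood (adjusted p 3.35e-05). Tumor library 1 held over 3 times the level of each of the others, and without it the log2 fold changes were 7.56 against LLC blood and 6.45 against healthy blood. Between the blood groups nothing can be said at this depth (log2 fold change -1.05, interval -4.73 to 2.63). All 8 of its values above 0 were fractional, so some of its reads may be shared with another gene.

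**Figure D1:**
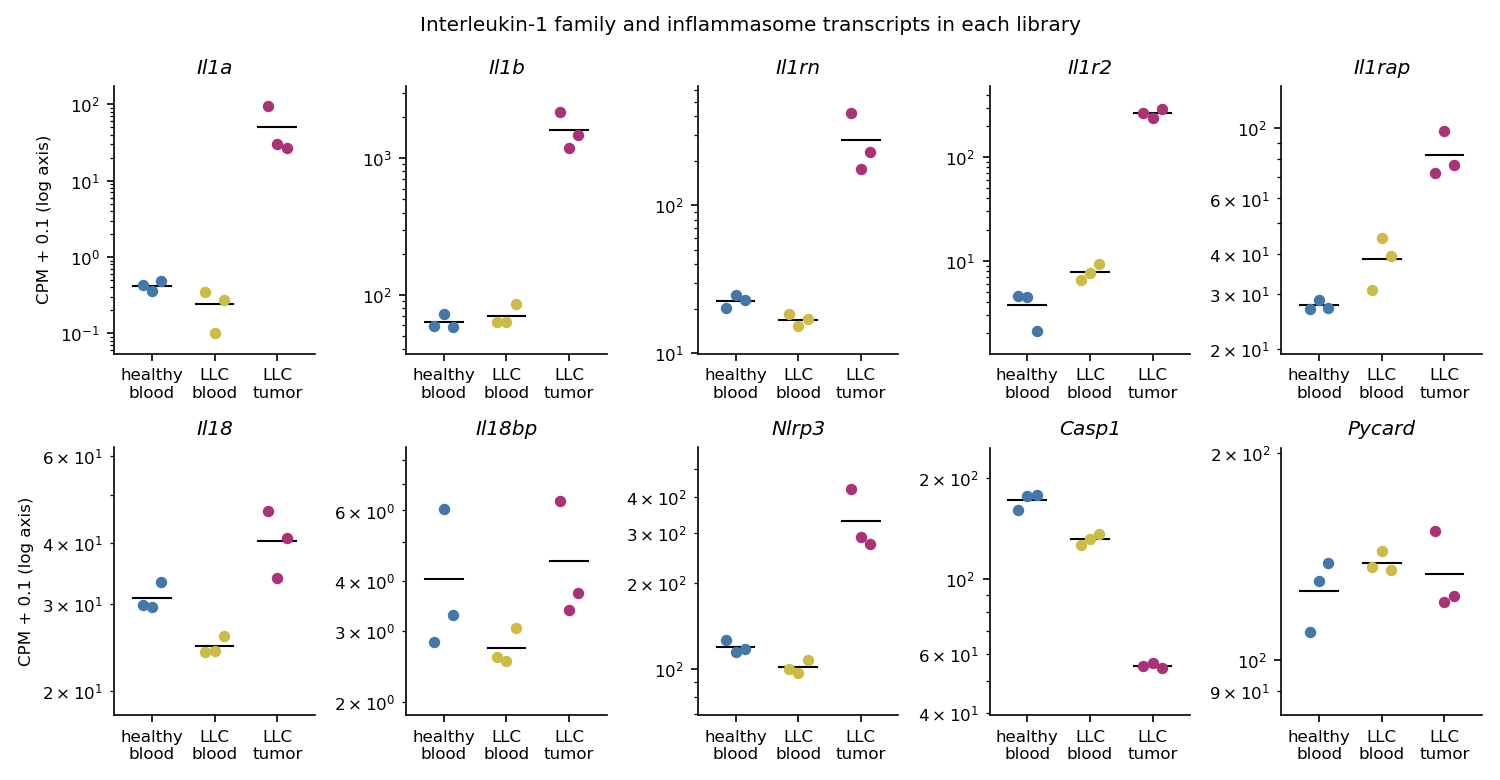
CPM plus 0.1 on a log axis for the 10 genes in the 3 groups, with a point for each library and a line at the mean of 3. Il1a, Il1b, Il1rn and Il1r2 sit far higher in tumor, Casp1 sits lower there at 54.4 to 56.5 CPM, and Pycard overlaps between all groups.

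Both brakes on IL-1 rose with the cytokines. Il1rn (ENSMUSG00000026981, chr2:24336860-24351491) was at 19.9, 24.6 and 22.6 CPM in healthy blood, at 18.3, 15.1 and 16.8 CPM in LLC blood and at 416.8, 176.1 and 229.8 CPM in LLC tumor. No tumor library overlapped with blood, and tumor 1 was again the highest. It was 19.6-fold higher in tumor than in LLC blood (log2 fold change 4.30 ± 0.38 SE, adjusted p 1.27e-05) and 14.4-fold higher than in healthy blood (3.85 ± 0.37 SE, adjusted p 1.77e-05). Without tumor 1 these values were 3.73 and 3.23. Every LLC blood library lay below every healthy blood library, a difference that was not called (-0.45, interval -1.26 to 0.36, adjusted p 0.404).

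Il1r2 (ENSMUSG00000026073, chr1:40084692-40125230) was at 4.50, 4.42 and 2.02 CPM in healthy blood, at 6.50, 7.61 and 9.18 CPM in LLC blood and at 269.8, 237.5 and 292.8 CPM in LLC tumor. The 3 groups did not overlap, and each step was upward. It was 2.13-fold higher in LLC blood than in healthy blood (log2 fold change 1.09 ± 0.28 SE, adjusted p 0.0210) and 39.1-fold higher in tumor than in LLC blood (5.29 ± 0.26 SE, adjusted p 4.18e-07). From healthy blood to tumor the difference was 83.3-fold (6.38 ± 0.28 SE, adjusted p 2.29e-07). The rise in blood was no longer called without LLC blood 2 (1.12, adjusted p 0.0573) or LLC blood 3 (0.94, adjusted p 0.0927). Neutrophils also express Il1r2, and 11 of 12 neutrophil markers were detected in each group. Their summed CPM was 673.5 to 901.8 for healthy blood, 785.8 to 1248 for LLC blood and 306.3 to 534.9 for LLC tumor. Csf3r and Mmp8 held most of that sum. In tumor against LLC blood 4 of the 10 tested markers were called lower, 0 higher and 6 were not called, among them Cxcr2 (means of 4.83 CPM in LLC blood and 6.52 CPM in tumor) and Retnlg (0.678 and 2.36 CPM). Of all genes 31.7% were called lower there and 29.6% higher, so the lower count lies near its share. In LLC blood against healthy blood 2 were called higher and 0 lower, beside 14.0% and 9.61% of all genes. The part of neutrophil RNA in either rise of Il1r2 was not tested.

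Il1rap (ENSMUSG00000022514, chr16:26581509-26730128), the accessory chain shared by the receptors for IL-1 and IL-33, was at 26.8, 28.6 and 26.9 CPM in healthy blood, at 30.7, 45.0 and 39.4 CPM in LLC blood and at 72.0, 98.0 and 76.5 CPM in LLC tumor. The groups did not overlap. It was 1.38-fold higher in LLC blood than in healthy blood (log2 fold change 0.46 ± 0.14 SE, adjusted p 0.0369) and 2.44-fold higher in tumor than in LLC blood (1.29 ± 0.13 SE, adjusted p 3.37e-05). Tumor was 3.36-fold above healthy blood (1.75 ± 0.14 SE, adjusted p 4.83e-06). The blood call was fragile: it was lost without any single healthy blood library (0.43 to 0.45), without LLC blood 2 (0.34) or LLC blood 3 (0.44), and with upper-quartile factors (0.41, adjusted p 0.0550) or library totals only (0.49, adjusted p 0.0518).

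The balance between cytokine and brake was followed as the log2 ratio of counts within a library, in which sequencing depth cancels and gene length cancels between groups. In the tumor libraries the Il1b to Il1rn ratio was 5.19, 6.73 and 6.38. It was 3.44, 4.16 and 5.07 for LLC blood, and 2.98, 2.94 and 2.57 for healthy blood. The groups did not overlap, so Il1b stood highest against its antagonist in tumor. The log2 ratio differed by 0.56 ± 0.17 SE between LLC blood and healthy blood and by 0.54 ± 0.20 SE between LLC tumor and LLC blood. The Il1b to Il1r2 ratio moved the other way, from 13.1, 16.3 and 28.3 in healthy blood to 9.63, 8.27 and 9.27 in LLC blood and to 8.01, 4.996 and 5.01 in the tumor libraries. Its log2 ratio differed by -1.01 ± 0.34 SE between LLC blood and healthy blood and by -0.63 ± 0.24 SE between tumor and LLC blood. Il1a rose further than Il1rn, with a log2 ratio 4.44 ± 0.92 SE higher in tumor than in LLC blood. LLC blood 2 had 0 counts of Il1a, so its ratio is set by the pseudocount of 0.5, and without it the difference was 3.57 (3.57 to 4.99 over the libraries left out in turn). In each of these differences without overlap the exact two-sided permutation test gave p = 0.1, the smallest it allows with 3 against 3, and 0.15 after adjustment over the 12 ratio tests. None is thus shown at 0.05.

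**Figure D2:**
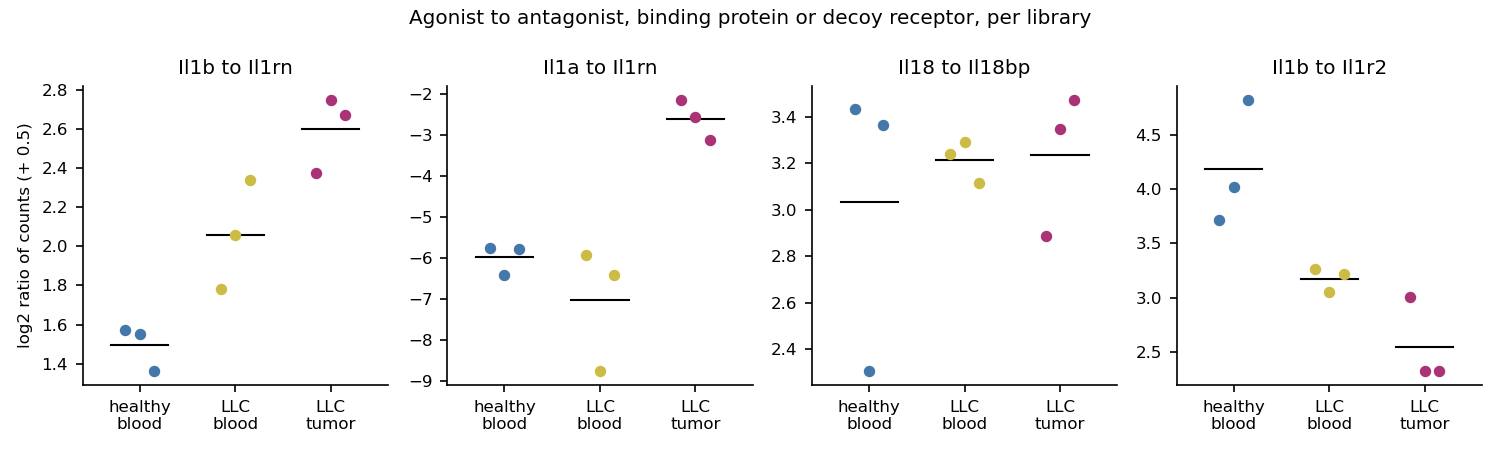
Log2 ratio of counts, each plus 0.5, for Il1b to Il1rn, Il1a to Il1rn, Il18 to Il18bp and Il1b to Il1r2, with a point for each library and a line at the mean of 3. Il1b to Il1rn runs upward over the groups and Il1b to Il1r2 downward, while Il18 to Il18bp overlaps between all groups.

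The IL-18 cytokine moved less than IL-1. Il18 (ENSMUSG00000039217, chr9:50554700-50581841) was at 29.7, 29.6 and 33.2 CPM in healthy blood, at 23.9, 24.003 and 25.7 CPM in LLC blood and at 46.4, 33.8 and 40.8 CPM in LLC tumor. It was 1.91-fold higher in tumor than in LLC blood (log2 fold change 0.93 ± 0.17 SE, adjusted p 0.00112) and 1.496-fold higher than in healthy blood (0.58 ± 0.17 SE, adjusted p 0.0129). Every LLC blood library lay below every healthy blood library, but that difference was not called (-0.35, interval -0.74 to 0.03, adjusted p 0.168).

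Il18bp (ENSMUSG00000070427, chr7:102015074-102018232) was scarce, with 26 to 97 counts per library. It was at 2.72, 5.96 and 3.19 CPM in healthy blood, at 2.49, 2.42 and 2.95 CPM in LLC blood and at 6.23, 3.28 and 3.63 CPM in LLC tumor. No comparison called it. The log2 fold change was -0.62 between LLC blood and healthy blood (interval -1.52 to 0.29) and 0.36 between tumor and healthy blood (interval -0.54 to 1.25). Between LLC tumor and LLC blood, which did not overlap, the log2 fold change was 0.97 ± 0.41 SE (interval 0.06 to 1.89, adjusted p 0.0620). That difference was called with DESeq2 (1.03, adjusted p 0.0438), with RLE factors (1.03, adjusted p 0.0496), without healthy blood 2 (1.00, adjusted p 0.0395) and without LLC tumor 2 (1.20, adjusted p 0.0367). Without LLC tumor 1 it was 0.52 (adjusted p 0.215). Healthy blood 2, its highest blood library, also held the most B cell marker counts, 191.2 CPM against 23.2 and 31.1 CPM for the 6 markers, and their part in the value was not tested. The Il18 to Il18bp ratio ranged from 4.94 to 11.1 over all 9 libraries with overlap between every pair of groups. Its log2 difference between tumor and LLC blood was 0.02 ± 0.19 SE (exact permutation p = 0.9). The IL-18 receptor chains, named here after their values were seen, moved apart. Il18r1, the binding chain, went from a mean of 7.73 CPM in healthy blood to 1.50 CPM in LLC blood (log2 fold change -2.36 ± 0.40 SE, adjusted p 0.00325) and 0.352 CPM in tumor (-4.28 ± 0.48 SE against healthy blood, adjusted p 4.52e-05). Il18rap, the accessory chain, was higher in tumor than in healthy blood (1.55 ± 0.37 SE, adjusted p 0.00436). It was at 22.3 to 37.8 CPM in healthy blood, 22.3 to 42.0 CPM in LLC blood and 33.9 to 115.0 CPM in tumor. LLC tumor 1, the lowest tumor library, lay within the range of both blood groups. T and NK cells also express both chains. Their 10 markers summed to 109.9 to 298.6 CPM in healthy blood, 18.3 to 31.6 CPM in LLC blood and 2.77 to 5.74 CPM in LLC tumor. The part of these cells was not tested.

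The 3 core inflammasome parts went in different directions in tumor. Nlrp3 (ENSMUSG00000032691, chr11:59541569-59566955), the sensor, was at 126.9, 115.1 and 117.3 CPM in healthy blood, at 100.3, 96.8 and 107.3 CPM in LLC blood and at 424.8, 290.7 and 273.3 CPM in LLC tumor. It was 3.82-fold higher in tumor than in LLC blood (log2 fold change 1.93 ± 0.22 SE, adjusted p 5.97e-05) and 3.18-fold higher than in healthy blood (1.67 ± 0.22 SE, adjusted p 0.000126). LLC blood lay below healthy blood without overlap, and the difference was not called (-0.26, interval -0.75 to 0.22, adjusted p 0.414).

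Casp1 (ENSMUSG00000025888, chr9:5298517-5307281), the protease that cleaves the precursors of IL-1 beta and IL-18, was at 160.6, 176.3 and 178.5 CPM in healthy blood, at 126.2, 131.6 and 136.1 CPM in LLC blood and at 55.1, 56.5 and 54.4 CPM in LLC tumor. The 3 groups did not overlap, and the tumor libraries lay close together in CPM. These levels leave out the TMM factors of the fit, 0.798, 1.00 and 0.968 for LLC tumor 1 to 3. With those factors tumor 1 lies above the other tumor libraries. Casp1 fell 1.33-fold from healthy blood to LLC blood (log2 fold change -0.41 ± 0.09 SE, adjusted p 0.0108) and 2.06-fold from LLC blood to tumor (-1.04 ± 0.09 SE, adjusted p 1.32e-05). From healthy blood to tumor it fell 2.74-fold (-1.46 ± 0.09 SE, adjusted p 1.48e-06). The first step was not called without healthy blood 3 (-0.38, adjusted p 0.0528).

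Pycard (ENSMUSG00000030793, chr7:127991373-127993867), the adaptor between sensor and protease, was at 109.8, 129.9 and 138.4 CPM in healthy blood, at 136.3, 143.8 and 134.9 CPM in LLC blood and at 154.0, 121.4 and 123.8 CPM in LLC tumor. All groups overlapped and no comparison called it. The log2 fold change was 0.17 between tumor and LLC blood (interval -0.20 to 0.54, adjusted p 0.401) and 0.27 between tumor and healthy blood (interval -0.10 to 0.64). The tumor value against LLC blood was -0.055 with library totals only, so no direction is given.

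**Figure D3:**
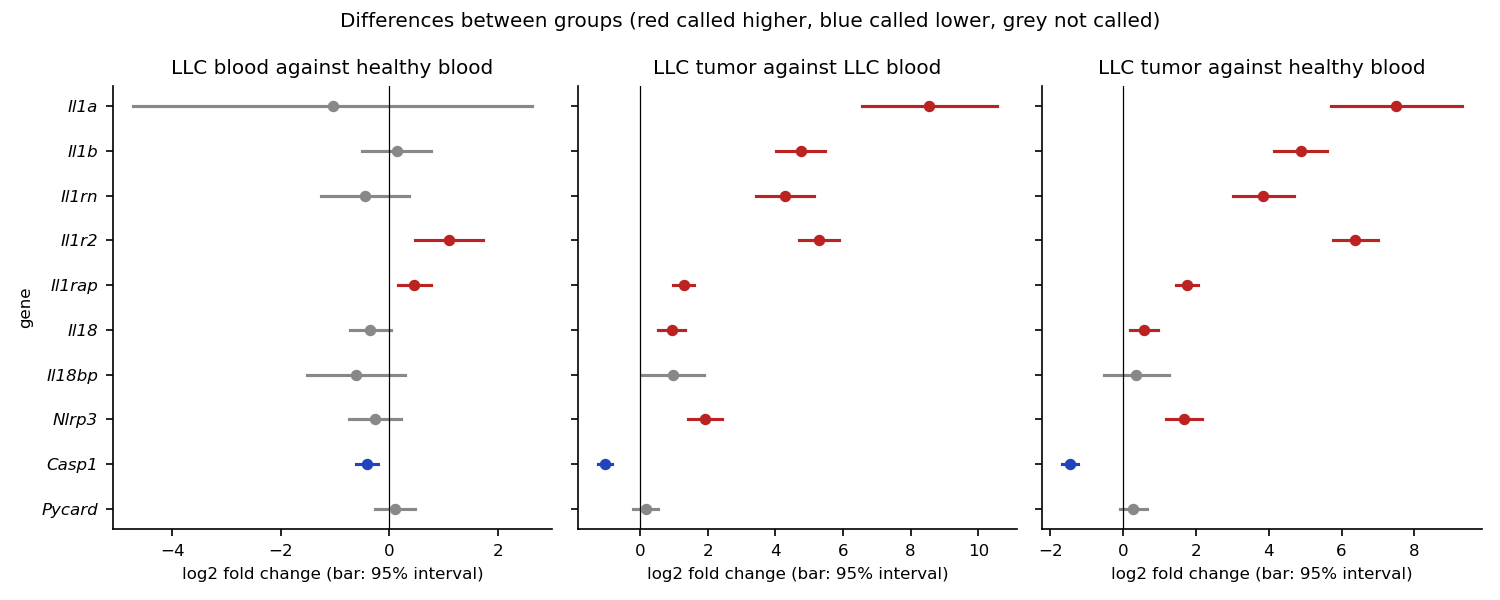
Log2 fold changes of the 10 genes in the 3 comparisons, as points with 95% intervals from the edgeR fit, coloured by call. In tumor against LLC blood 7 genes are called higher and Casp1 lower, while Il18bp and Pycard lie right of 0 and are not called. In LLC blood against healthy blood most intervals cross 0.

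Counted together, 7 of the 10 genes were called higher and 1 lower in LLC tumor against LLC blood, where 29.6% and 31.7% of all genes were called higher and lower. Their median log2 fold change was 1.61, against -0.03 over all genes tested. Against healthy blood the counts were again 7 higher and 1 lower, with 33.5% and 33.0% of all genes, and the median was 1.71 against 0.00. The 3 comparisons share libraries in pairs, so their counts are not independent. The genes were chosen with earlier results of these data known, so the counts and medians beside all genes are a description and no test. In LLC blood against healthy blood 2 were higher and 1 lower, beside 14.0% and 9.61% of all genes, and the median was -0.31 against -0.01. That is 3 of 10 called, close to the 23.6% of all genes. Without LLC tumor 1, Il1rn (-0.50, adjusted p 0.0176), Il18 (-0.40, adjusted p 0.00826) and Nlrp3 (-0.32, adjusted p 0.00569) were also called lower in LLC blood, which made 4 of 10, where 22.4% of all genes were called lower. The same 4 were called with only the 6 blood libraries (20.9% of all genes) and with limma-voom with sample quality weights (23.4%).

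Marker sums also moved with the blood comparison. The 10 T and NK cell markers had summed CPM of 109.9 to 298.6 for healthy blood against 18.3 to 31.6 for LLC blood, and all 10 were called lower in the latter. Of all genes 9.61% were called lower and 14.0% higher in this comparison. Of the 8 macrophage markers 5 were called lower and 0 higher in LLC blood. Of the 7 tested dendritic cell markers 5 were lower and 0 higher. Of 13 dissociation stress genes 4 were lower and 0 higher. Their sums were 4068, 1526 and 1368 CPM in LLC blood 1 to 3, against 6252, 4284 and 4178 CPM in healthy blood 1 to 3. Library 1 was thus the highest in both blood groups. The part of such cells and of dissociation in the lower Casp1 of LLC blood was not tested.

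Several marker sums moved with the tumor result. Summed CPM of the 13 dissociation stress genes was 10213 to 12648 in LLC tumor, 1368 to 4068 in LLC blood and 4178 to 6252 in healthy blood. Of the 13, 12 were called higher in tumor against LLC blood and 7 against healthy blood, with 0 lower in both. Of all genes 29.6% and 33.5% were called higher in these comparisons, and 31.7% and 33.0% lower. The 8 macrophage markers, all detected in each group, summed to 1987 to 2969 CPM in LLC tumor, 1039 to 1120 CPM in LLC blood and 1659 to 1968 CPM in healthy blood. Most of the blood sums came from Apoe, Cd68 and Adgre1. By gene, 7 of the 8 were called higher and 1 (Adgre1) lower in tumor against LLC blood, with a median log2 fold change of 5.26. The complement gene C1qa, for example, was 125-fold and the mannose receptor Mrc1 65.8-fold higher. Against healthy blood 6 were higher and 1 lower (median 4.47). By CPM, LLC tumor 1 had the highest level of Il1a, Il1b, Il1rn, Il18, Il18bp, Nlrp3 and Pycard among the tumor libraries. With the TMM factors, Il1r2 and Casp1 were highest in tumor 1 as well. LLC tumor 1 also had the highest sums of both lists, 12648 and 2969 CPM, and library 1 was the highest for both lists in each blood group too. Without tumor 1 the log2 fold change of Il1b against LLC blood was 4.36 and that of Nlrp3 was 1.60, both still called. The 6 tumor cell and epithelial markers summed to 63.1 to 101.3 CPM in LLC tumor, 1.84 to 2.73 CPM in LLC blood and 1.35 to 2.07 CPM in healthy blood. Cdh1 held most of the tumor sum (mean 50.1 CPM), followed by Krt18 (20.3 CPM) and Krt8 (9.40 CPM). Epcam had at most 2 counts and Krt19 at most 3 in a tumor library, and Sox2 was at 0 in each. The 8 dendritic cell markers summed to 123.9 to 230.2 CPM in LLC tumor, 57.1 to 84.7 CPM in LLC blood and 132.4 to 146.1 CPM in healthy blood. Of the 7 tested, 2 were called higher and 2 lower in tumor against LLC blood, near the shares of all genes. Itgax held most of the tumor sum (mean 176.1 CPM), while Flt3 (22.4 to 2.83 CPM) and Cd209a (3.97 to 0.385 CPM) fell. The part of dissociation, macrophage content and other cells in these values was not tested.

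Across the 9 libraries the 10 genes differed in how far they moved. The span of log2 CPM from lowest to highest library was 9.71 for Il1a, 7.33 for Il1r2, 5.59 for Il1b and 5.19 for Il1rn, and 0.86 for Pycard. By the root-mean-square difference of log2 CPM centred on each gene's mean, Il1b and Il1rn were nearest to each other (0.48), as were Nlrp3 and Il1rap (0.42) and Il18 and Pycard (0.33). Casp1 was the farthest from Il1a, Il1b, Il1rn and Il1r2 (2.45 to 3.96). The nearest genes to Il1b were sought among 6896 other tested genes that averaged 20 CPM or more over the 9 libraries. The 5 nearest were Tnfrsf23 (0.24), Bnip3 (0.24), Slc2a1 (0.25), Got1 (0.27) and Rgcc (0.29). Tnfrsf23, Got1 and Rgcc met that level through tumor alone, with means of 2.79, 8.59 and 3.76 CPM in healthy blood and 3.69, 9.23 and 3.67 CPM in LLC blood. Slc2a1, the glucose transporter GLUT1, had 37.7 ± 1.81 CPM in healthy blood (SD, n = 3 here and below), 50.9 ± 2.55 CPM in LLC blood and 1243 ± 183.2 CPM in tumor. Bnip3, a mitochondrial protein of mitophagy, was at 21.2 ± 2.73, 18.7 ± 0.279 and 437.4 ± 93.4 CPM. Such a distance over 3 separated groups is a description, with no test.

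The other genes of the pathway were taken from 4 lists with 60 genes, of which 55 passed the filter. In LLC tumor against LLC blood 16 were called higher and 26 lower, with a median log2 fold change of -0.26. The 17 tested inflammasome sensors and partners fell for the most part: 11 were lower and 1 was higher (median -0.81), where 31.7% and 29.6% of all genes were called. Nlrp1a, a sensor that recruits caspase-1, was at 46.4 to 51.4 CPM in healthy blood, 70.3 to 78.9 CPM in LLC blood and 18.9 to 22.04 CPM in tumor. It fell by 1.65 ± 0.09 SE on the log2 scale between the latter groups (adjusted p 7.76e-07). The single gene that rose was Mefv, which encodes the inflammasome sensor pyrin. It was at 154.9 to 171.3 CPM in healthy blood, 235.2 to 266.1 CPM in LLC blood and 301.9 to 353.8 CPM in tumor, and both steps were called (0.58 ± 0.10 SE, adjusted p 0.00424, and 0.56 ± 0.10 SE, adjusted p 0.00111). Nlrp3 and Mefv therefore rose in tumor while 11 other inflammasome genes and Casp1 fell. Against healthy blood the same list had 9 lower and 1 higher, beside 33.0% and 33.5% of all genes. The list also holds Txnip, a thioredoxin-binding protein linked to Nlrp3, which went from 1014 to 1298 CPM in healthy blood to 566.6 to 716.2 CPM in LLC blood and 248.0 to 378.6 CPM in tumor (tumor against healthy, -1.71 ± 0.24 SE, adjusted p 0.000214). Its fall in LLC blood (-0.77 ± 0.24 SE, adjusted p 0.0435) was not called without any single one of the 6 blood libraries, LLC blood 1 included.

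Of 14 tested genes of pyroptosis and precursor processing, 6 were higher and 7 lower in tumor against LLC blood, beside 29.6% and 31.7% of all genes. Gsdmd, the pore protein that Casp1 cleaves, went down with the protease, from 233.6 to 237.9 CPM in healthy blood to 160.3 to 192.3 CPM in LLC blood and 118.1 to 125.0 CPM in tumor. Its log2 fold change was -0.48 ± 0.11 SE in LLC blood against healthy blood (adjusted p 0.0105) and -0.29 ± 0.11 SE from LLC blood to tumor (adjusted p 0.0365). The blood call was lost without LLC blood 2 or LLC blood 3. Ninj1, which ruptures the plasma membrane after pore formation, went from 85.9 to 97.7 CPM in healthy blood to 41.6 to 64.7 CPM in LLC blood and 223.1 to 348.4 CPM in tumor. It fell in blood (-0.86 ± 0.25 SE, adjusted p 0.0355) and was higher in tumor than in LLC blood (2.61 ± 0.26 SE, adjusted p 2.50e-05). The fall in blood was not called without any single healthy blood library, LLC blood 2 or LLC blood 3.

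Neutrophil-type proteases that can cleave IL-1 precursors outside the inflammasome are on the same list. Prtn3, proteinase 3, was at 7.15 to 12.1 CPM in healthy blood, 29.7 to 56.9 CPM in LLC blood and 5.15 to 12.4 CPM in tumor. It rose in LLC blood (log2 fold change 2.31 ± 0.31 SE, adjusted p 0.00112) and was lower again in tumor (-2.14 ± 0.31 SE, adjusted p 0.000271). Serpinb1a, an inhibitor of neutrophil serine proteases, went the same way, with 21.9 to 30.4, 44.2 to 49.7 and 4.78 to 10.1 CPM (0.82 ± 0.17 SE, adjusted p 0.00913, and -2.35 ± 0.19 SE, adjusted p 7.11e-06). Of the other proteases of the list, named after their values were seen, Elane and Ctsg went as Prtn3 did. Their means in LLC blood were 5.66 and 3.27 CPM. Their log2 fold changes were 3.60 (adjusted p 0.00363) and 1.38 (adjusted p 0.00857) in LLC blood against healthy blood. In tumor against LLC blood they were -3.70 (adjusted p 0.000896) and -2.68 (adjusted p 9.73e-05). Mmp9 and Ctsc went differently. Mmp9 was higher in tumor than in LLC blood (means of 56.1 and 1.72 CPM), by 5.23 ± 1.01 SE on the log2 scale with an adjusted p of 0.00154, and so was Ctsc, which activates granule serine proteases (0.72 ± 0.24 SE, adjusted p 0.0284). The neutrophil marker sums given with Il1r2 were also lowest in tumor and reached their maximum in LLC blood 2, and their part was not tested. In LLC blood against healthy blood the 4 lists together had 12 genes higher and 5 lower of 55 (median 0.18), beside 14.0% and 9.61% of all genes, and the lower count is near that share.

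Of 22 receptors and signaling genes, 8 were higher and 8 lower in tumor against LLC blood (median -0.13). The 2 largest rises were those of Il1r1 and Il1rl1. Over all genes tested the shares were 29.6% higher and 31.7% lower, so the list's counts lie near them. Il1r1, the signaling receptor for IL-1, was at 18.2, 77.7 and 78.4 CPM in LLC tumor 1 to 3 and at no more than 0.724 CPM in any blood library (log2 fold change 6.49 ± 0.60 SE against LLC blood, adjusted p 1.54e-05). Il1rl1, the receptor for IL-33, was at 16.4, 52.3 and 52.1 CPM in tumor and at no more than 0.861 CPM in blood (6.30 ± 0.45 SE, adjusted p 3.38e-06). Il33 itself, an alarmin of the family, was at 18.8, 80.1 and 70.2 CPM in tumor and had 3 counts or fewer in each LLC blood library, which makes it at least 264-fold higher (adjusted p 5.49e-06). All 3 genes were lowest in tumor 1, and so was the fibroblast marker sum, 938.2 CPM against 3470 and 3929 CPM. In LLC blood 1, where fibroblast markers summed to 414.2 CPM, Il1r1 was at 0.669 CPM and Il33 at 0.287 CPM. The makeup of the sums differed. In LLC blood 1 most was Col1a1 (212.2 CPM) and Col1a2 (130.6 CPM), with Dcn at 4.02 CPM and Lum at 2.77 CPM. In tumor Col3a1 held most of the sum (mean 2204 CPM), with Dcn at 107.5 CPM or more and Lum at 83.5 CPM or more. The part of fibroblast RNA in the tumor values was not tested. Il1b and Il1a ran the other way among the tumor libraries, highest in tumor 1. Peli1, a ubiquitin ligase of this signaling pathway, fell from 104.7 to 118.1 CPM in healthy blood to 35.9 to 46.1 CPM in tumor (-1.29 ± 0.17 SE, adjusted p 0.000111).

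**Figure D4:**
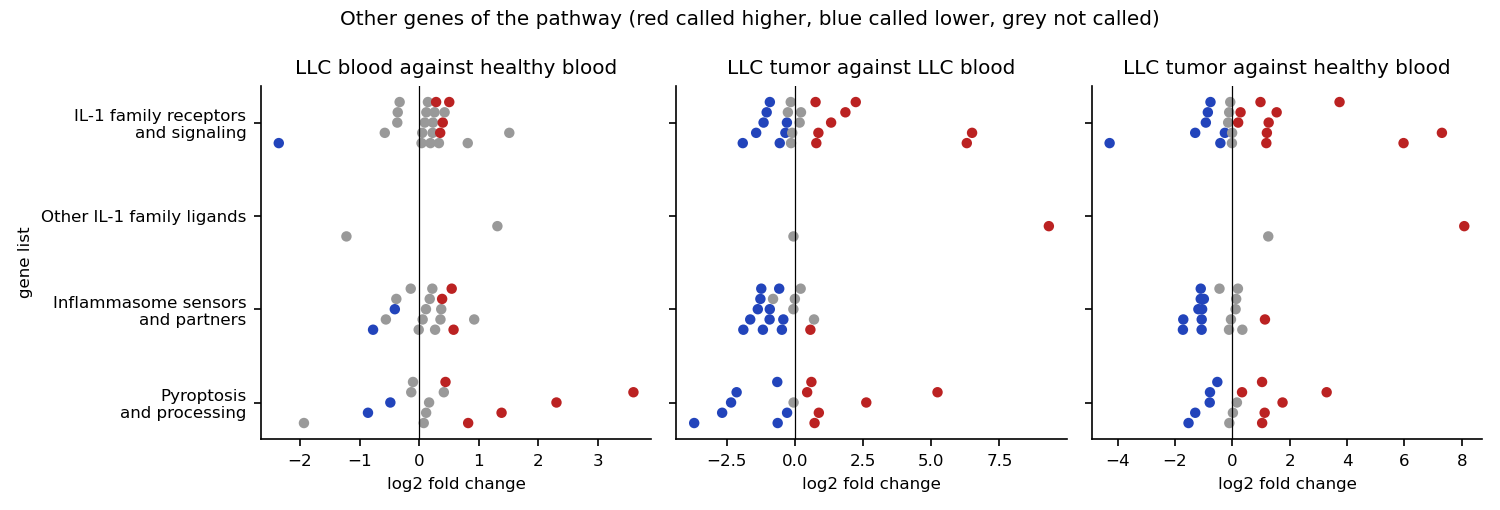
Log2 fold change of the 55 tested genes of the 4 pathway lists in each comparison, a point for each gene, coloured by call. In tumor against LLC blood the inflammasome sensors and partners lie mostly left of 0, with 11 called lower and 1 higher.

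**Figure D5:**
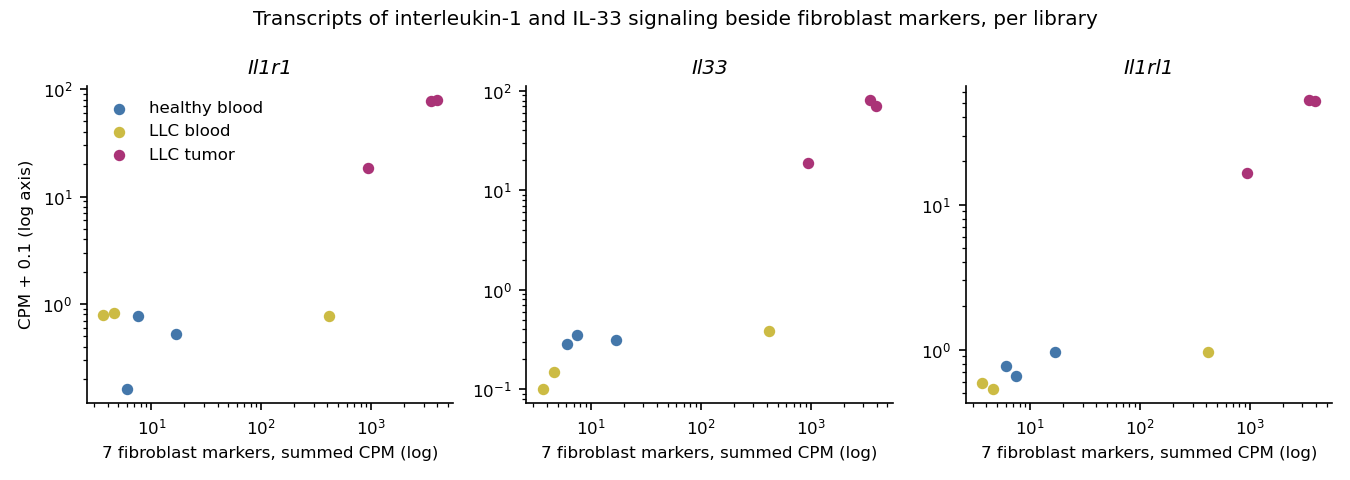
CPM plus 0.1 of Il1r1, Il33 and Il1rl1 against the summed CPM of 7 fibroblast markers in the 9 libraries, both on log axes. LLC tumor 1, at 938.2 CPM of fibroblast markers, is the lowest tumor library for all 3 genes. LLC blood 1, at 414.2 CPM that are mostly Col1a1 and Col1a2, stays near the other blood libraries.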

How the data were processed

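RNA-seq covered 9 of the 31 samples of the series, and the other 22 (chromatin assays) were not analysed here. The authors deposited expected counts, that is estimated read counts per gene symbol, and a table of CPM values for 10693 of these genes. STAR 2.6.1d, Salmon 1.9.0, edgeR and the build mm10 are named in the submitters' processing notes, with no role or order. Column heads of blood libraries carry the letters BM, read as blood monocyte from the sample descriptions. Whole reads were recovered from the deposited CPM values: each library gave 100% whole reads within a tolerance of 0.01, all equal to the rounded deposited counts. In these reads 2584, 6792 and 7236 genes were called in LLC blood against healthy blood, LLC tumor against LLC blood and LLC tumor against healthy blood.

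Counts were rounded and fitted in edgeR 4.0.16 (R 4.3.3) with its quasi-likelihood test, TMM factors, the filterByExpr filter and the group as the only term over all 9 libraries. All adjusted p-values (Benjamini-Hochberg over all tested genes within a comparison) come from this edgeR fit unless another tool is named, and intervals of fold changes are 95% intervals from it. CPM levels use totals over all entries, and non-overlap refers to these levels. The ratio pseudocount was 0.5. The floor is 3 counts per library. Intervals and floors on counts cover counting error only.

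Alternatives used RLE, upper-quartile or no factors, no filter, DESeq2 1.42.0, limma-voom (limma 3.58.1), only the 6 libraries compared, the recovered reads, a replicate block, each library left out, and an adjusted p under 0.01. Pathway genes were named by rule: in each comparison the 3 called genes with the largest rise and the 3 with the largest fall among those that averaged 10 CPM or more over the 6 libraries compared. A gene could meet this level through a single group. Il33, Il1r1 and Il1rl1 met it through tumor alone, with at most 0.861 CPM in any blood library. The members and lists were chosen with earlier results of these data known. Ly6g was not used here. No sequencing batch is given in the labels, and any batch shared by a group's libraries cannot be told apart from the group.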

Additional observations from a re-analysis of the deposited data

How the results depend on the processing

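The count of 7 genes called higher in LLC tumor against LLC blood was 7 or 8, and that of 1 lower stayed at 1, in every alternative run; against healthy blood the counts were 6 or 7 and 1. The blood comparison was less settled. Of 2 genes called higher there, 1 was called with upper-quartile factors and 1 with library totals only, 0 at an adjusted p under 0.01, and 0 to 2 with a library left out. Of 1 called lower, 4 were called with limma-voom and 4 with only the 6 libraries compared, 0 at an adjusted p under 0.01, and 0 to 4 with a library left out. A stricter threshold calls fewer genes by construction, and the cause of the other changes was not tested.

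Signs turned only for values that were not called. Il1b in LLC blood against healthy blood was -0.033 without LLC blood 3 and up to 0.22 with another library left out. Pycard in LLC tumor against LLC blood was -0.055 with library totals only, -0.040 with limma-voom, -0.046 without LLC tumor 1 and up to 0.29 with a library left out. Il18bp in LLC tumor against healthy blood was -0.12 with limma-voom and -0.15 to 0.75 with a library left out. The log2 ratio of Il18 to Il18bp was -0.18 to 0.38 in LLC blood against healthy blood, -0.10 to 0.19 in LLC tumor against LLC blood and -0.16 to 0.40 in LLC tumor against healthy blood with a library left out. Library totals only moved the median of all genes to -0.23 in LLC tumor against LLC blood and -0.17 against healthy blood, and upper-quartile factors moved the latter to -0.10. The pathway lists had 12 genes higher in LLC blood against 24 with limma-voom and 19 with only the 6 libraries. They had 5 lower against 8 and 8, 1 at an adjusted p under 0.01, and 1 to 9 with a library left out. Of 2917 genes called in the blood comparison, limma-voom called 5884 and the 6 libraries 4889, an adjusted p under 0.01 left 1386, and leaving a library out gave 1494 (without LLC blood 2) to 5064 (without LLC tumor 1).

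The replicate block left the counts at 2 higher and 1 lower in blood and at 7 and 1 in both tumor comparisons, and called 2788 genes in the blood comparison. Same-numbered libraries correlated at -0.14 to 0.30 in their deviations from the group mean, above 0.1 in 3 of 9 pairs. Of 18 matches, 11 were best with the own number. Between LLC blood and LLC tumor, the groups that could share animals, it was 1 match in each direction. The labels do not say that the numbers pair libraries, and they were not taken to pair them. The sums of the dissociation stress genes and of the macrophage markers were highest in library 1 of each group. Whether libraries of the same number were handled together was not tested. Depth limits Il1a in blood, where 0 to 6.21 counts were seen, and Il18bp, with 26 to 97.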
